A study of Mus musculus with 54 samples.

Results

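A set of 10 genes of the bone morphogenetic protein (BMP) pathway was followed across both sides of the follicle wall, with and without an ovulatory stimulus. They were taken from the deposited tables by gene symbol: the ligand gene *Bmp2*, the antagonist gene *Grem1*, the receptor genes *Bmpr1a*, *Bmpr1b* and *Bmpr2*, the inhibitory Smad genes *Smad6* and *Smad7*, and the target genes *Id1*, *Id2* and *Id3*. All 10 symbols were found, each on 1 row, among 25149 genes in all. *Bmp2* and *Id3* were high without human chorionic gonadotropin (hCG) and low post-hCG on both sides, *Id2* did the opposite, and *Grem1* was highest on the putative ruptured side.

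BMPs are secreted ligands that bring together type I receptors, such as BMPR1A and BMPR1B, and a type II receptor, such as BMPR2, at the cell surface. The activated type I receptor phosphorylates SMAD1, SMAD5 and SMAD9, which enter the nucleus with SMAD4 and act on target genes, the *Id* genes being among the best known. Gremlin binds BMP ligands outside the cell and keeps them from their receptors, whereas SMAD6 and SMAD7 hold the signal back inside it. In the ovary, BMPs of the oocyte and the somatic cells are known for restraining progesterone production by granulosa cells before ovulation, and hCG stands in for the luteinizing hormone surge that starts it.

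The libraries came from follicles of female CD-1 mice, an outbred strain, aged 14 to 16 days, grown in alginate hydrogel for 8 days and then held for 12 h in maturation medium. That medium held recombinant FSH, EGF and FBS in every group, and the post-hCG groups alone also received hCG. Follicles were then cut apart by hand, and RNA of a single side was amplified with Smart-Seq2, a protocol for very small RNA amounts. There were 15 libraries of the putative unruptured side and 14 of the putative ruptured side without hCG, and, post-hCG, 12 of the unruptured and 13 of the ruptured side, which makes 54. The sides are called putative without hCG because those follicles had not ruptured and were cut by the shape that foretells the site. The isolation enzymes strip much of the theca layer, part of which grows back in culture. The labels do not tie libraries to animals or follicles, so p-values measure the spread between these libraries, which may share an animal.

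Total counts per library ran from 1497138 to 2834794. Cumulus-oocyte complex is the tissue given in the labels, although per the study's methods these complexes were taken out before the wall was sampled. Of 9 oocyte marker genes, the summed level was at least 5 TPM (the deposited level, per transcript length and library) in 6 libraries, 4 of them from the putative unruptured side, 1 from the putative ruptured side and 1 from the unruptured side post-hCG, with a highest sum of 152 TPM. Each comparison is therefore also given without these 6 libraries where that ended a call. All 8 granulosa markers had a count on both unruptured sides and 7 of 8 on both ruptured sides, where *Amh* was at 0. Their summed level had a median of 4094 TPM on the putative unruptured side, 13090 TPM on the putative ruptured side, 1512 TPM on the unruptured side post-hCG and 1198 TPM on the ruptured side post-hCG. The sum of 10 theca markers had medians of 724, 35.6, 346 and 6.97 TPM in the same order, with *Cyp17a1* at 0 on the ruptured side post-hCG. In these bulk libraries, fewer cells of a type and less RNA per cell cannot be told apart. The letter in each library's column name is read here as a plate row, which the labels do not state. By it, the post-hCG libraries stood in rows B to D and those without hCG in rows F to H, so row and medium cannot be told apart. Rows B and F held unruptured libraries only and rows D and H ruptured libraries only, so side is also largely tied to row. Rows C and G alone held both sides.

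**Figure D1:**
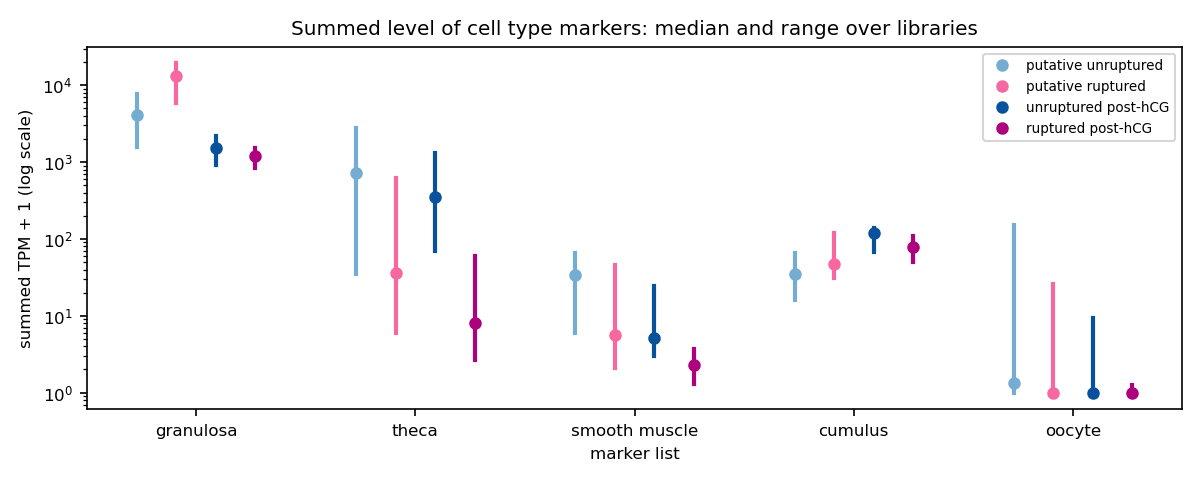
Summed level of 5 marker lists (x axis) as TPM + 1 on a log scale (y axis), with a point at the median and a line from the lowest to the highest library of each group. The theca sum is lower on the ruptured side in either medium, the granulosa sum is highest on the putative ruptured side with a median of 13090 TPM, and the oocyte sum has a median near 0 with single libraries up to 152 TPM.

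The upstream sequences of *Id2* and *Id3* are shown because, among the 3 target genes of the set, these moved most, and in opposite directions, when hCG was added. Both are the 250 bases before the RefSeq transcript start in GRCm38.p6, written 5′ to 3′ on the strand of the gene. *Id2* lies on the minus strand at chr12:25096093-25096342 and *Id3* on the plus strand at chr4:136143572-136143821. Both stretches lie within the gene spans of the GENCODE annotation given below, so they precede the RefSeq start but not the gene as GENCODE bounds it. Capitals mark matches, on either strand, to GGCGCC or GGAGCC, short GC-rich motifs known from BMP-responsive promoters. The third sequence, from 60 bases before to 20 bases after the start of *Smad6* on the minus strand of chromosome 9, is shown for its match to the Smad box palindrome GTCTAGAC, capitalized together with a GGAGCC.
Id2 upstream: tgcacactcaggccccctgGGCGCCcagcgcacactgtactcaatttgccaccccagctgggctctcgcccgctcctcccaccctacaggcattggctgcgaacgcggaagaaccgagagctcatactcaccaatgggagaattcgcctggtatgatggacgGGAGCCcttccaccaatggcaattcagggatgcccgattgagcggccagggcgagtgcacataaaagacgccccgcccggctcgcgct
Id3 upstream: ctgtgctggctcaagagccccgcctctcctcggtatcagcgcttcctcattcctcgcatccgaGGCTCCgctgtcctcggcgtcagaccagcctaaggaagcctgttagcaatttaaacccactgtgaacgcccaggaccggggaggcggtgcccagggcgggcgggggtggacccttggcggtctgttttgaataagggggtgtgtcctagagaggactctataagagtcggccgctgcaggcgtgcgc
Smad6 start: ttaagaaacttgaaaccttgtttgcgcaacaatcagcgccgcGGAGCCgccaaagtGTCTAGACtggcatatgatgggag

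RefSeq windows of 250 bases before to 50 bases after the start were read for 7 of the 10 members, without *Bmp2*, *Id1* and *Smad7*, and for 27025 genes in all, of which the shares below count the first window of each. GGCGCC occurred in the windows of *Grem1*, *Bmpr1a*, *Bmpr2* and *Id2*, against 12.0% of all windows. GGAGCC, which shares no position with the other motifs in these windows, occurred in those of *Smad6*, *Id2* and *Id3* and in 2 of the 3 windows of *Bmpr1b*, against 30.5% of all. The palindrome GTCTAGAC began 4 bases before the start of *Smad6* and spanned it, and 0.211% of all windows hold it. The cyclic AMP response element TGACGTCA (1.88% of all windows) and the nuclear receptor site CAAGGTCA (1.53%) matched in no window of a member. The GC content of the windows was 70.7% for *Grem1*, 79.3% for *Bmpr1a*, 59.3% for *Bmpr2* and 63.3% for *Id2*. It was 66.3% for *Smad6*, 60% for *Id3* and 48.3% to 55.7% for *Bmpr1b*, against a median of 52.7% over all genes. Its part in the matches was not tested. A match describes the letters only and shows no binding.

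*Bmp2* (chr2:133552159-133562885 in GRCm38, plus strand), the ligand gene, was the most strongly changed of the 10 genes. On the putative unruptured side its level ran from 86.6 to 279 TPM with a median of 147 TPM (162 ± 69.5, mean ± SD, n = 15). The putative ruptured side gave 74.5 to 342 TPM with a median of 172 TPM (177 ± 77.3, n = 14). These groups overlapped almost fully, the putative unruptured median being exceeded in 9 of 14 putative ruptured libraries. Post-hCG, the unruptured side held 0.6 to 12.7 TPM with a median of 4.61 TPM (4.97 ± 3.13, n = 12). The ruptured side post-hCG held 0.09 to 3.25 TPM with a median of 1.1 TPM (1.45 ± 1.06, n = 13). Every post-hCG library therefore lay below every library without hCG of the same side, and all 13 ruptured libraries post-hCG were under the median of the unruptured ones.

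Groups were compared gene by gene with the quasi-likelihood test of edgeR on the deposited counts, which is two-sided, with Benjamini-Hochberg adjustment over all genes tested (FDR). A gene was called at an FDR under 0.05, and a positive log2 fold change (log2FC) means higher on the ruptured side or post-hCG. *Bmp2* fell by 5.12 on the log2 scale with hCG on the unruptured side (SE 0.32, FDR = 7.97e-15, edgeR), a 34.8-fold difference. On the ruptured side it fell by 6.77 (SE 0.35, FDR = 1.86e-17, edgeR), a 109-fold difference. The sides did not differ detectably without hCG (log2FC 0.19, SE 0.23, FDR = 0.638, edgeR). Post-hCG, the ruptured side had less *Bmp2* than the unruptured side (log2FC −1.47, SE 0.33, FDR = 0.00119, edgeR). The interaction, the log2FC between sides post-hCG minus that without hCG, was −1.66 (SE 0.41, FDR = 0.00628, edgeR). Among the 9 libraries of plate row C alone, which holds both sides post-hCG, the difference between sides was −0.68 (FDR = 0.338, edgeR).

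*Grem1* (chr2:113746164-113758646, minus strand), the gremlin gene, was expressed at a few TPM and highest on the putative ruptured side. The putative unruptured side held 0.33 to 2.51 TPM with a median of 0.96 TPM (1.07 ± 0.58, n = 15). The putative ruptured side held 1.44 to 12.2 TPM with a median of 4.76 TPM (5.18 ± 3.00, n = 14). The whole putative unruptured range was exceeded in 12 of 14 putative ruptured libraries and its median in 14. Post-hCG, levels ran from 0.22 to 2.8 TPM with a median of 1.52 TPM on the unruptured side (1.49 ± 0.78, n = 12) and from 0.29 to 5.29 TPM with a median of 1.8 TPM on the ruptured side (2.30 ± 1.51, n = 13). These groups overlapped widely, with 5 of 13 ruptured libraries beyond the top of the unruptured range.

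The putative ruptured side had 4.96-fold more *Grem1* without hCG (log2FC 2.31, SE 0.28, FDR = 1.39e-06, edgeR). With the 6 libraries with oocyte markers left out, the log2FC was 2.18 (FDR = 9.98e-05, edgeR). Within plate row G alone, 5 libraries of either side, it was 1.78 (FDR = 0.18, edgeR), and 3 of 9068 genes were called there in all. Post-hCG the difference was 1.87-fold in the same direction (log2FC 0.90, SE 0.32, FDR = 0.0397, edgeR). That call was lost, with an FDR of up to 0.0891 in edgeR and log2FC values of 0.71 to 1.02, in 12 of the 25 fits that left out 1 library. These were unruptured replicates 4, 6, 7, 8, 9, 11 and 12 and ruptured replicates 3, 8, 11, 12 and 13. The post-hCG call was also lost without the libraries with oocyte markers (log2FC 0.84, FDR = 0.066, edgeR). It was lost too with library totals alone (0.75, FDR = 0.0928, edgeR) and within plate row C (0.94, FDR = 0.184, edgeR). On log2(TPM + 1), limma gave 0.33 (FDR = 0.296), where its median over all genes was −0.21. With hCG, *Grem1* on the ruptured side fell by 1.01 on the log2 scale (SE 0.31, FDR = 0.00518, edgeR), while the log2FC for the unruptured side was 0.38 (SE 0.28, FDR = 0.263, edgeR). The interaction was −1.40 (SE 0.45, FDR = 0.0359, edgeR), and −1.32 without the libraries with oocyte markers (FDR = 0.0766, edgeR). This interaction was also not called with no filter or with counts thinned to the smallest library. Leaving out unruptured replicate 2 or 3 or ruptured replicate 4, 5 or 10 post-hCG, or putative ruptured replicate 2, 8 or 13, moved its FDR to between 0.0506 and 0.0675 in edgeR, with log2FC values of −1.27 to −1.60 over all 54 such fits.

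**Figure D2:**
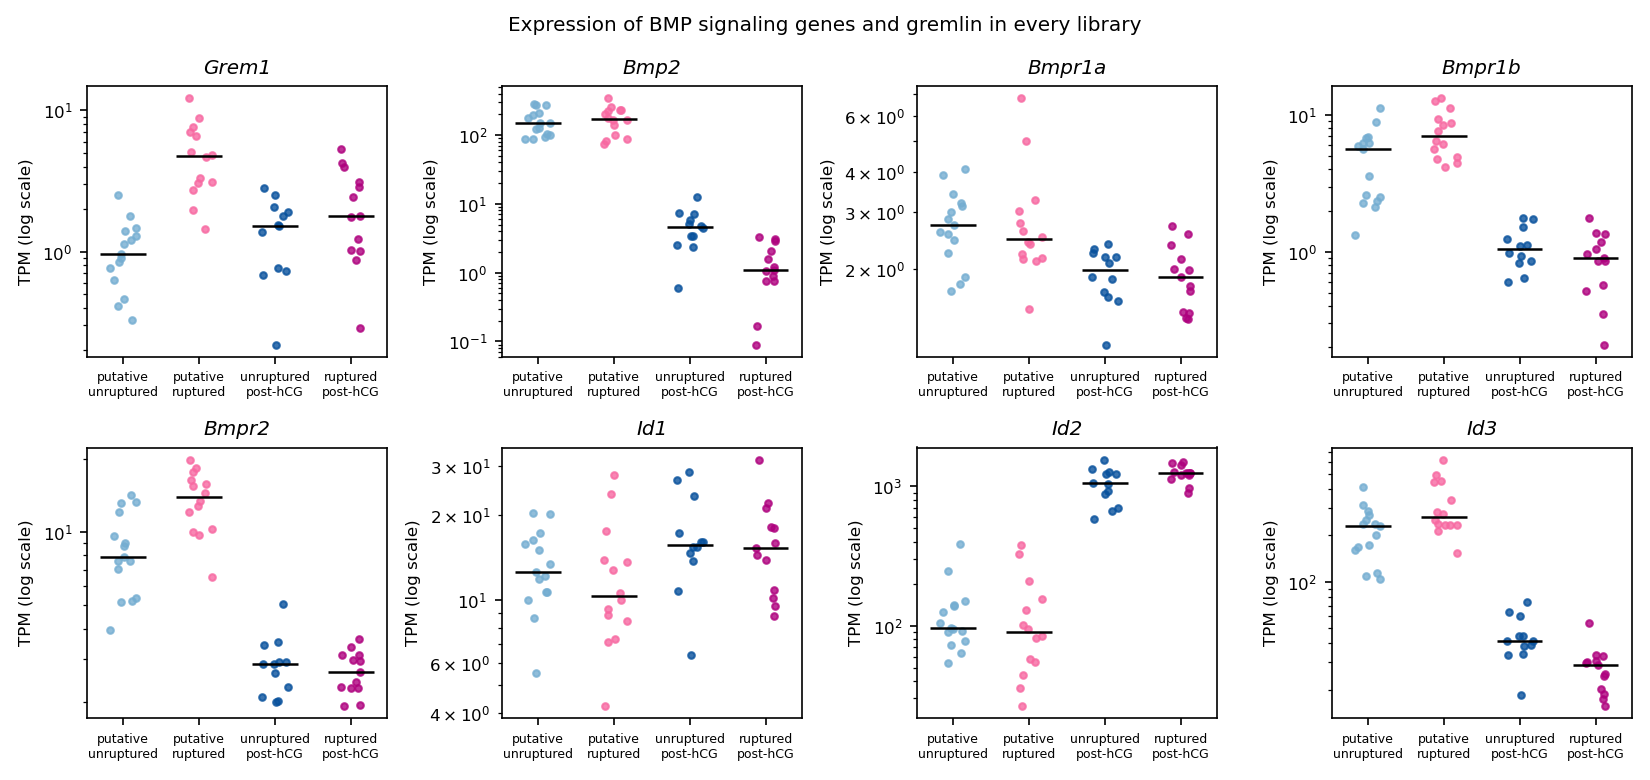
Level of 8 of the 10 genes in each of 54 libraries (points, TPM on a log scale) by group (x axis), with a line at the group median. *Bmp2* and *Id3* drop and *Id2* climbs post-hCG with no overlap on either side, and *Grem1* is highest on the putative ruptured side, with a median of 4.76 TPM.

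Among the receptors, *Bmpr1b* and *Bmpr2* were higher on the putative ruptured side and lower post-hCG, whereas *Bmpr1a* moved little. *Bmpr2* (chr1:59763400-59879014, plus strand), the type II receptor gene, ran from 3.93 to 14.2 TPM with a median of 7.88 TPM on the putative unruptured side (n = 15) and from 6.52 to 19.8 TPM with a median of 13.9 TPM on the putative ruptured side (n = 14). Its putative unruptured median was exceeded in 13 of 14 putative ruptured libraries, and its range in 7. Post-hCG it ran from 2 to 5.07 TPM with a median of 2.87 TPM on the unruptured side (n = 12) and from 1.92 to 3.61 TPM with a median of 2.64 TPM on the ruptured side (n = 13). On the ruptured side the media did not overlap, and on the unruptured side 11 of 12 post-hCG libraries lay below the range without hCG. *Bmpr2* was higher on the putative ruptured side by a log2FC of 0.68 (SE 0.16, FDR = 0.00309, edgeR), but by 0.29 within plate row G (FDR = 0.719, edgeR). With hCG it fell by 1.62 on the unruptured side (SE 0.17, FDR = 1.45e-09, edgeR) and by 2.11 on the ruptured side (SE 0.15, FDR = 4.97e-14, edgeR). Its interaction of −0.49 did not pass the threshold in edgeR (SE 0.22, FDR = 0.159), whereas limma on log2(TPM + 1) called it at −0.71 (FDR = 0.0232). Over all genes, limma gave a median interaction of −0.19, with 85 genes called above 0 and 679 below.

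*Bmpr1b* (chr3:141837136-142169425, minus strand), a type I receptor gene long studied in sheep for its effect on ovulation rate, ran from 1.33 to 11.2 TPM with a median of 5.65 TPM on the putative unruptured side (n = 15). On the putative ruptured side it ran from 4.14 to 13.2 TPM with a median of 7.04 TPM (n = 14). The groups overlapped, with 9 of 14 putative ruptured libraries above the other median. The unruptured side post-hCG gave 0.6 to 1.76 TPM with a median of 1.04 TPM, and the ruptured side 0.21 to 1.77 TPM with a median of 0.9 TPM. All 13 ruptured libraries post-hCG lay below the lowest putative ruptured library, and 9 of 12 unruptured libraries post-hCG lay below the putative unruptured range. The side difference without hCG was 0.75 (SE 0.22, FDR = 0.0145, edgeR), 0.63 without the 6 libraries with oocyte markers (FDR = 0.0735, edgeR) and 0.27 within plate row G (FDR = 0.825, edgeR). With hCG, *Bmpr1b* fell by 2.50 on the unruptured side (SE 0.25, FDR = 4.41e-10, edgeR) and by 2.91 on the ruptured side (SE 0.21, FDR = 1.69e-13, edgeR). Between the sides post-hCG its counts of 4 to 21 per library were under the expression filter, and with no filter the log2FC was 0.33 (SE 0.22, FDR = 0.412, edgeR).

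*Bmpr1a* (chr14:34410734-34503341, minus strand), the other type I receptor gene, had group medians of 2.74, 2.48, 1.98 and 1.88 TPM on the putative unruptured, putative ruptured, unruptured and ruptured sides. All 4 groups overlapped, between 1.16 and 6.8 TPM. It fell by 0.55 with hCG on the unruptured side (SE 0.13, FDR = 0.000588, edgeR) and by 0.34 on the ruptured side (SE 0.14, FDR = 0.033, edgeR). Keeping all genes with no filter moved the latter FDR to 0.0553 in edgeR. The sides differed by 0.11 without hCG (SE 0.13, FDR = 0.629, edgeR) and by 0.31 post-hCG (SE 0.13, FDR = 0.0923, edgeR). Without ruptured replicate 2, the post-hCG value was 0.36 (FDR = 0.0458, edgeR).

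The *Id* genes encode helix-loop-helix proteins that lack a DNA-binding domain and hold other factors of their family inactive. *Id2* (chr12:25093799-25097140, minus strand) was the member that climbed with hCG on both sides. Its level ran from 53.7 to 383 TPM with a median of 95.9 TPM on the putative unruptured side (128 ± 84.8, n = 15) and from 26.5 to 379 TPM with a median of 89.5 TPM on the putative ruptured side (127 ± 108, n = 14). Post-hCG it ran from 579 to 1548 TPM with a median of 1054 TPM on the unruptured side (1036 ± 295, n = 12) and from 895 to 1495 TPM with a median of 1239 TPM on the ruptured side (1233 ± 173, n = 13). The lowest post-hCG library stood above the highest library without hCG on both sides. *Id2* rose by 3.00 on the unruptured side (SE 0.25, FDR = 5.59e-12, edgeR), an 8.03-fold difference. On the ruptured side it rose by 3.50 (SE 0.29, FDR = 4.06e-12, edgeR), an 11.3-fold difference. The interaction of 0.49 did not pass (SE 0.38, FDR = 0.47, edgeR). Between the sides, the log2FC was 0.01 without hCG (SE 0.32, FDR = 0.992, edgeR) and 0.50 post-hCG (SE 0.13, FDR = 0.00606, edgeR). With all 4 groups in one fit, which shares their spread, the post-hCG value stayed at 0.50 with an FDR of 0.213 in edgeR. Within plate row C it was 0.06 (FDR = 0.868, edgeR).

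*Id3* (chr4:136143497-136145755, plus strand) went the other way. It ran from 104 to 415 TPM with a median of 230 TPM on the putative unruptured side (218 ± 84.9, n = 15) and from 154 to 620 TPM with a median of 264 TPM on the putative ruptured side (319 ± 132, n = 14). These groups overlapped, though 12 of 14 putative ruptured libraries lay above the other median. Post-hCG it ran from 18.4 to 74.3 TPM with a median of 41.2 TPM on the unruptured side (44.3 ± 15.1, n = 12) and from 15.6 to 54.3 TPM with a median of 28.6 TPM on the ruptured side (27.8 ± 9.97, n = 13). Neither side had a post-hCG library within the range without hCG, and the unruptured median was undercut in 12 of 13 ruptured libraries. With hCG, *Id3* fell by 2.34 on the unruptured side (SE 0.20, FDR = 2.17e-11, edgeR), or 5.05-fold, and by 3.38 on the ruptured side (SE 0.18, FDR = 6.58e-17, edgeR), or 10.4-fold. The interaction was −1.05 (SE 0.26, FDR = 0.00636, edgeR).

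Between the sides, *Id3* was higher on the putative ruptured side by a log2FC of 0.62 without hCG (SE 0.19, FDR = 0.0226, edgeR), and post-hCG it was lower where the wall had ruptured (log2FC −0.44, SE 0.15, FDR = 0.0392, edgeR). The first call was lost without the 6 libraries with oocyte markers (log2FC 0.56, FDR = 0.0755, edgeR) and within plate row G (0.50, FDR = 0.548, edgeR). The second was −0.09 within plate row C (FDR = 0.869, edgeR) and −0.43 with all 4 groups in one fit (FDR = 0.118, edgeR). It was also lost in 11 of 25 fits that left out 1 library, those without unruptured replicate 2, 3, 4 or 5 or ruptured replicate 1, 2, 4, 7, 9, 10 or 13. In those 25 fits the log2FC ran from −0.36 to −0.51, with an FDR of up to 0.0913 in edgeR.

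*Id1* (chr2:152736251-152737410, plus strand) had overlapping levels in every group, with medians of 12.6, 10.3, 15.8 and 15.3 TPM on the putative unruptured, putative ruptured, unruptured and ruptured sides. Single libraries lay between 4.23 and 31.4 TPM. Of the 4 comparisons between groups, the media on the ruptured side gave its one call (log2FC 0.46, SE 0.20, FDR = 0.0449, edgeR). Scaling by library totals alone turned that value to 0.15 with an FDR of 0.523 in edgeR, and leaving out the libraries with oocyte markers gave 0.42 with an FDR of 0.0724. The call was also lost with DESeq2, with limma on log2(TPM + 1) and with no filter. On the unruptured side the same contrast gave 0.32 (SE 0.17, FDR = 0.106, edgeR), and the sides differed by −0.01 without hCG (SE 0.20, FDR = 0.989, edgeR) and 0.13 post-hCG (SE 0.17, FDR = 0.645, edgeR). No two-group comparison of its mean log2(TPM + 1) passed a permutation test either, with adjusted p-values of 0.0905 or more.

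*Smad6* (chr9:63953076-64022059, minus strand) and *Smad7*, the inhibitory Smads, were near the limit of detection. *Smad6* had 1 to 8 counts per library on the putative unruptured side (60 counts over 15 libraries), 0 to 5 on the putative ruptured side (26 over 14), 0 to 4 on the unruptured side post-hCG (13 over 12) and 0 to 4 on the ruptured side post-hCG (17 over 13). Every putative unruptured library held a count, against 10 of 14, 7 of 12 and 9 of 13 libraries of the other groups in that order. *Smad7* had 5 to 16 counts with a median of 11 on the putative unruptured side and 5 to 11 with a median of 8.5 on the putative ruptured side. Post-hCG its median was 5 on both sides, with 1 to 11 and 2 to 9 counts. The groups overlapped for both genes.

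Neither inhibitory Smad passed the expression filter between any pair of groups, and *Smad7* alone entered the interaction fit (log2FC −0.07, SE 0.32, FDR = 0.934, edgeR). With no filter, *Smad6* was lower with hCG on the unruptured side (log2FC −1.48, SE 0.46, FDR = 0.0125, edgeR) and gave −0.51 on the ruptured side (SE 0.51, FDR = 0.446, edgeR). *Smad7* then gave −0.60 on the unruptured side (SE 0.26, FDR = 0.0787, edgeR) and −0.64 on the ruptured side (SE 0.24, FDR = 0.0361, edgeR). Their deposited TPM values did not track these counts, since the library with the highest *Smad6* level, 7.83 TPM, had 4 counts and the one with the most counts, 8, had 0.66 TPM, so counts are given here in place of TPM.

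**Figure D3:**
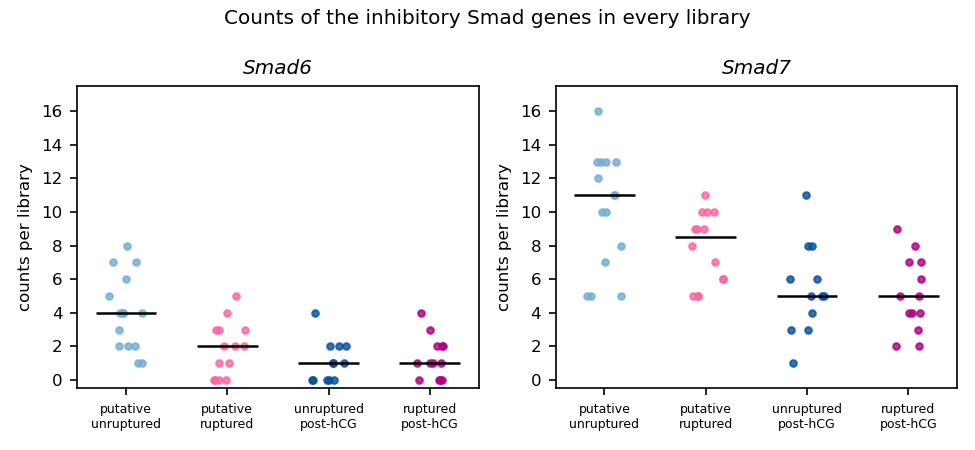
Counts of *Smad6* and *Smad7* (y axis, rounded counts per library) in each library (points) by group (x axis), with a line at the group median. Most libraries hold fewer than 10 counts of either gene. The putative unruptured medians of 4 and 11 counts are the highest, in the group that also has the highest median total count.

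The 10 genes were chosen with earlier results of these data known, so the shares and medians below describe the list and do not test it. Taken as a list, 4 of 8 members tested were called between the sides without hCG, all higher on the putative ruptured side. Of all genes tested, 17.8% were called, 8.84% higher and 8.96% lower. Their median log2FC was 0.40, against −0.01 over all genes tested. Without the 6 libraries with oocyte markers, 2 were called, *Grem1* and *Bmpr2*, and within plate row G alone edgeR called 0 of 9, with 1 at an unadjusted p under 0.05. Of all genes, 1090 of 9006 were called without those libraries and 3 of 9068 within row G. Post-hCG, 4 of 7 members tested were called between the sides, 2 in each direction, against 21.4% of all genes (10% higher and 11.3% lower), with a median of 0.18 against 0.01. Without the oocyte-marker libraries *Bmp2* and *Id2* were called, and within plate row C edgeR called 0 of 7, with 1 at an unadjusted p under 0.05. Of all genes, 1682 of 8631 were called without those libraries and 748 of 9004 within row C.

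hCG changed 6 of 8 members tested on the unruptured side, 5 lower and 1 higher, against 53.1% of all genes (27.7% lower and 25.4% higher), and the median log2FC was −1.09 against −0.03. On the ruptured side it changed all 8 tested, 6 lower and 2 higher, against 60.1% of all genes (30.4% lower and 29.7% higher), with a median of −1.56 against 0 over all genes. The share of counts from mitochondrial genes also moved with the medium, from a median of 6.82% to 4.57% on the unruptured side and from 6.7% to 3.94% on the ruptured side, and its part in the hCG values was not tested. In TPM, the media did not overlap on the unruptured side for 3 members (*Bmp2*, *Id2* and *Id3*), against 5.08% of genes averaging at least 1 TPM. On the ruptured side 5 members did not overlap (these and *Bmpr1b* and *Bmpr2*), against 7.04%. No member was free of overlap between sides, where 0.0304% of genes were without hCG and 1.15% post-hCG. The interaction was called for 3 of 9 members tested, all below 0, against 8.91% of all genes (4.65% below and 4.25% above 0). The comparisons between sides and between media share groups, so their values stand side by side and are not independent.

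**Figure D4:**
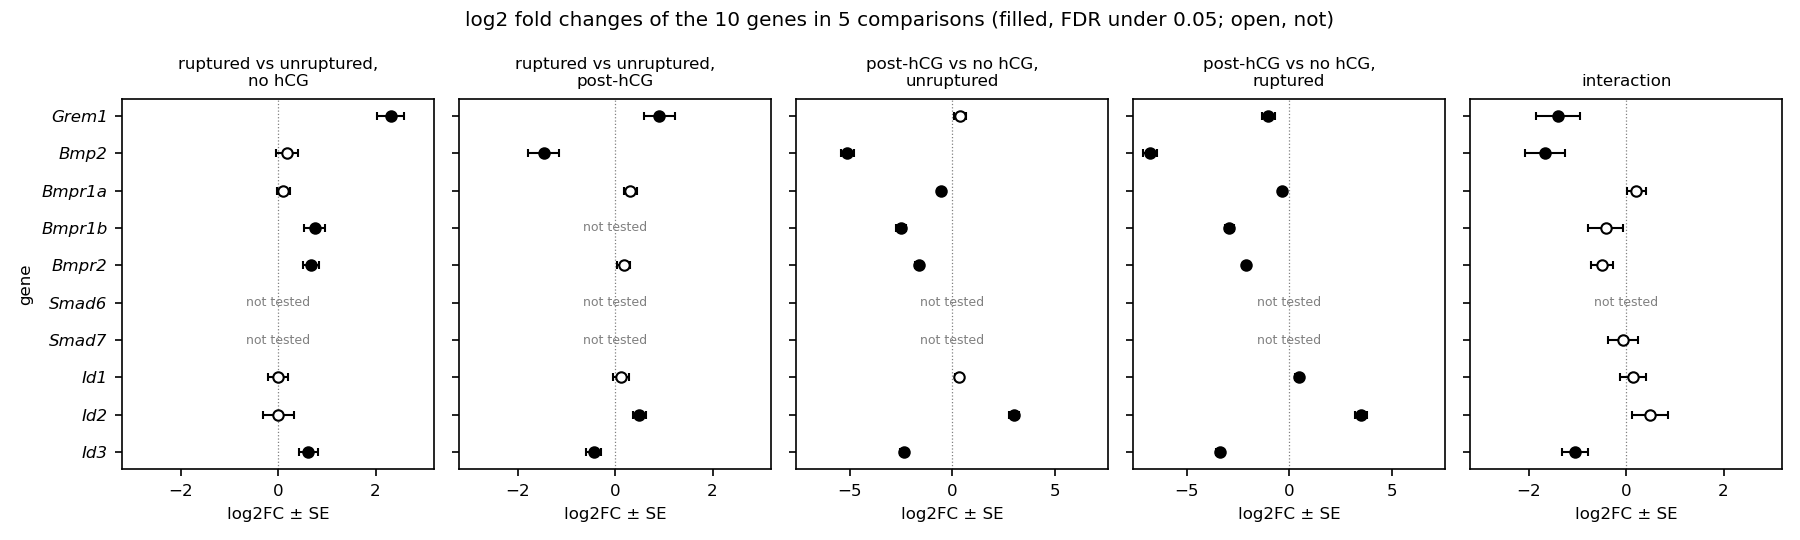
log2FC of the 10 genes (x axis, bars are SE) in the 5 comparisons (panels, with separate x scales), filled where the edgeR FDR was under 0.05 and marked where a gene was under the expression filter. hCG gives the widest values, from −6.77 for *Bmp2* to 3.50 for *Id2* on the ruptured side, and *Grem1* leads the comparison of the sides without hCG at 2.31.

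The markers of other cell types moved with the sides. The putative ruptured side, where *Grem1*, *Bmpr1b*, *Bmpr2* and *Id3* were higher, had a theca marker sum of 5.02 to 628 TPM against 33.7 to 2755 TPM, and a granulosa marker sum of 5856 to 19260 TPM against 1577 to 7652 TPM. Post-hCG the theca sum was 1.66 to 58.4 TPM on the ruptured side against 69.0 to 1323 TPM, and the granulosa sum 833 to 1542 TPM against 931 to 2178 TPM. Smooth muscle markers had medians of 33.3, 4.68, 4.18 and 1.29 TPM on the putative unruptured, putative ruptured, unruptured and ruptured sides. The 5 endothelial and 5 immune markers had medians of 3.25 TPM or less in every group, and the 5 surface epithelium markers of 0.52 TPM or less. The 5 cumulus markers, several of which are induced by hCG, had medians of 33.5, 46.0, 120 and 76.6 TPM. The part of these cells in the differences between sides was not tested.

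The order of the group levels was read on mean log2(TPM + 1). Two-sided permutation tests (100000 resamples), 1 for each gene and pair of groups, were adjusted over 60 tests. Of these tests, 36 passed at an adjusted permutation p under 0.05. For *Bmp2*, the putative ruptured and putative unruptured sides came first and did not differ beyond their spread (7.34 and 7.23, adjusted permutation p = 0.702), followed by the unruptured side (2.39) and the ruptured side (1.17), each lower than the one before it. *Bmpr1b* and *Bmpr2* shared another order, in which the putative ruptured side was first, the putative unruptured side next, and the post-hCG sides last and not distinguishable from each other. *Id3* was the one gene whose 4 groups all differed from their neighbours, at 8.22, 7.67, 5.43 and 4.78 on the putative ruptured, putative unruptured, unruptured and ruptured sides. For *Id2*, the ruptured and unruptured sides led (10.3 and 9.96) and did not differ here (adjusted permutation p = 0.0616), unlike in edgeR on counts. For *Grem1*, the putative ruptured side (2.47) stood above the ruptured side (1.58, adjusted permutation p = 0.00585), and further down neither the ruptured and unruptured sides (adjusted permutation p = 0.229) nor the unruptured and putative unruptured sides (0.216) could be told apart.

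Within groups, 10 pairs of members were compared over the libraries of each group, 40 values in all. *Grem1* and *Id3* varied together on the unruptured side post-hCG (Pearson r = 0.79, permutation p = 0.00229, adjusted 0.0458; Spearman rho = 0.78, permutation p = 0.0043, adjusted 0.0885, n = 12), and r was 0.53 without the 2 libraries farthest from the *Grem1* median. *Id1* and *Id3* did so on the putative ruptured side (r = 0.77, permutation p = 0.00142, adjusted 0.0458; rho = 0.70, permutation p = 0.00686, adjusted 0.0885, n = 14), with r = 0.58 without the 2 farthest libraries. No rho passed the adjustment, though 8 of 40 had a permutation p under 0.05 before it, and on log2(CPM + 1) no r passed, with 4 of 40 under 0.05 before it. *Bmp2* and *Id1*, a ligand and a target gene, gave r between −0.21 and 0.30 in the 4 groups, with adjusted permutation p-values of 0.555 or more.

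The genes most like each member were sought among 9888 genes averaging at least 1 TPM, by Pearson's r of deviations from the group means over 54 libraries, which share depth and RNA input. *Sgk1*, a serum and glucocorticoid regulated kinase gene, was closest to *Grem1* (r = 0.69), followed by *Ext1* and *Pank2*. *Ivns1abp* (0.70), *Pik3ip1* and *Ctgf*, a connective tissue growth factor gene, were closest to *Bmp2*. *Smim3* (0.82), *Shisa5* and *Tsc22d1* led for *Id2*, and *Fscn1* (0.73), the gene of the actin-bundling protein fascin, *Fam3c* and *Hmgb3* for *Id3*. For *Bmpr2* they were *Greb1l* (0.72), *Creb3l2* and *Smad9*, for *Bmpr1b* *Grb14* (0.76), *Srbd1* and *Slc24a4*, and for *Bmpr1a* *Mgea5* (0.66), *Sdc2* and *Sik3*. For *Id1* they were *Baz2a* (0.63), *Id3* and *Zfp771*. The highest values for *Smad6* (*Xpc*, 0.52, then *D2hgdh* and *Stim1*) and *Smad7* (*Zbtb45*, 0.67, then *Hivep2* and *Fem1b*) rest on deposited TPM values that did not track the few counts given above.

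The other genes of the pathway were taken from a list of 53 by role, all found in the tables. That list too was chosen with earlier results of these data known. Between the sides without hCG, 19 passed the filter and 3 were called higher and 4 lower on the putative ruptured side, against 8.84% and 8.96% of all genes. The list's median log2FC was 0.01, against −0.01 over all genes. The higher ones were *Bmp3*, *Heyl* and *Fst*. *Bmp3*, a ligand gene whose product opposes other BMPs, had a median of 43.9 TPM against 11.1 TPM on the putative unruptured side (log2FC 1.64, SE 0.25, FDR = 2.42e-05, edgeR). *Heyl*, a transcriptional repressor gene, led at 1.74 (SE 0.29, FDR = 8.27e-05, edgeR), and *Fst*, the gene of follistatin, which binds activins and BMPs, gave 1.46 (SE 0.33, FDR = 0.00175, edgeR). *Fstl1*, a follistatin-like gene, gave −1.53 (SE 0.31, FDR = 0.000585, edgeR) and *Eng*, the coreceptor endoglin of endothelial and stromal cells, −1.38 (SE 0.49, FDR = 0.0466, edgeR). *Nbl1* and *Bmp1* were the other lower genes.

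Post-hCG, 17 of the 53 passed the filter between the sides and 5 were higher and 4 lower on the ruptured side, against 10% and 11.3% of all genes, with a median of −0.03 against 0.01 over all genes. *Fst* had a median of 19.3 TPM on the ruptured side against 5.38 TPM, and *Heyl* one of 2.93 TPM against 1.27 TPM (log2FC 1.35, SE 0.21, FDR = 1.89e-05, edgeR). *Runx2*, a transcription factor gene induced by the ovulatory stimulus in granulosa cells, had medians of 503 and 265 TPM (log2FC 0.79, SE 0.12, FDR = 1.2e-05, edgeR). *Fstl1* (log2FC −1.03), *Tgfbr3*, the coreceptor betaglycan (−0.85), and *Fstl3* (−0.78) were lower, with FDR values of 0.00402 or less in edgeR. *Bmper* and *Twsg1* were the remaining higher genes and *Bmp1* the remaining lower one.

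With hCG, 13 of 20 tested genes of the list were called on the unruptured side, 3 higher and 10 lower, and 15 of 19 on the ruptured side, 4 higher and 11 lower. Of all genes, 53.1% were called on the unruptured side (25.4% higher and 27.7% lower) and 60.1% on the ruptured side (29.7% higher and 30.4% lower). The list's medians were −0.37 and −0.42, against −0.03 and 0 over all genes. *Runx2* rose from a median of 8.85 to 265 TPM on the unruptured side (log2FC 4.16, SE 0.17, FDR = 7e-19, edgeR) and, where the wall ruptured, from 10.7 to 503 TPM (log2FC 4.99, SE 0.16, FDR = 4.3e-22, edgeR). *Bmper*, which encodes a BMP-binding protein, rose by 2.14 and 2.60, and *Fstl3* by 2.23 and 2.39, with FDR values of 2.03e-10 or less in edgeR. *Bmp3*, *Fst* and *Bambi*, the gene of a pseudoreceptor, fell on both sides. Their log2FC values on the unruptured and ruptured sides were −1.92 and −3.33 for *Bmp3*, −2.80 and −1.91 for *Fst* and −1.97 and −2.44 for *Bambi*, with FDR values of 4.52e-07 or less in edgeR.

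Of 4 intracellular mediators, the 3 that passed the filter, *Smad4*, *Smad5* and *Smad9*, were called lower with hCG on both sides, by log2FC values of −0.44 to −1.48, where 27.7% and 30.4% of all genes were called lower. None was called between sides. *Smad1* was under the filter, with medians of 0.37 to 0.79 TPM. Of 14 ligand genes of the list, *Bmp3* alone passed the filter between pairs of groups. *Bmp4*, the nearest relative of *Bmp2*, had medians of 0.81, 0.23, 0.22 and 0 TPM on the putative unruptured, putative ruptured, unruptured and ruptured sides, against 147, 172, 4.61 and 1.1 TPM of *Bmp2*. The oocyte ligand gene *Gdf9* had a median of 0 TPM in every group, with a highest value of 24.7 TPM on the putative unruptured side. *Nog*, the gene of the antagonist noggin, did not pass 0.48 TPM in any library.

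**Figure D5:**
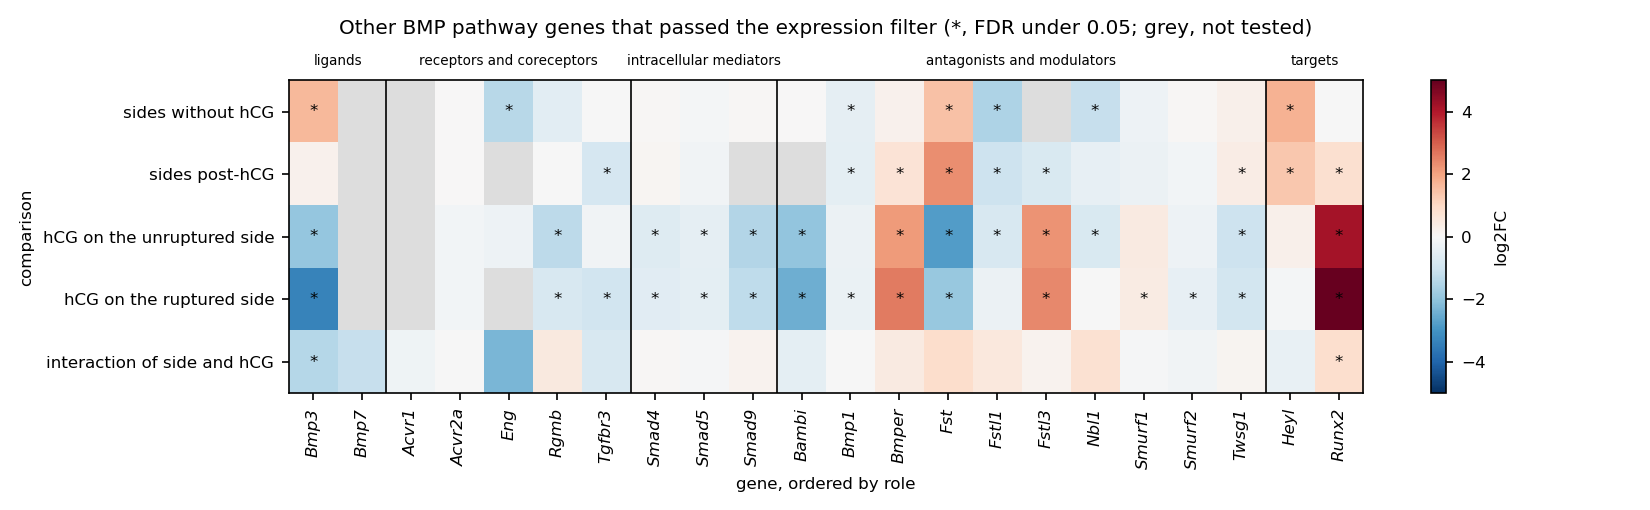
log2FC (colour) of the 22 other BMP pathway genes that passed the expression filter in at least 1 comparison (columns, by role) in the 5 comparisons (rows), with a star where the edgeR FDR was under 0.05 and grey where a gene was not tested. *Runx2* at 4.16 and 4.99 and *Bmp3* at −1.92 and −3.33 mark the hCG comparisons, and the Smad genes are lower in both.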

How the data were processed

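RNA of 54 single follicle sides was amplified with Smart-Seq2. Alignment to GRCm38 by the authors used HISAT2, batches were corrected with ComBat-seq, and an estimated count, not always whole, was deposited for each gene in each library. The counting program, the annotation, the batches and whether the deposited counts precede that correction are not given in the sources used here. TPM values were also deposited, and neither the program that made them nor whether they follow the batch correction is given in the sources used here.

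Counts were rounded, since 72.2% of non-zero values were exactly whole, kept where filterByExpr passed the gene (count of at least 10, sum of at least 15), normalised by TMM and compared by the quasi-likelihood F-test of edgeR 4.0.16 in R 4.3.3, with Benjamini-Hochberg adjustment over all genes and calls at 0.05. Each pair of groups was fitted alone, and the interaction over all 4. SE is the log2FC over the root of F. Level tests and correlations used log2(TPM + 1) and permutations in Python 3.11.15 (numpy 2.4.6, scipy 1.17.1, pandas 2.3.3). The smallest p that 100000 resamples can give is 1e-05. The edgeR steps were tested on simulated counts. No pair of libraries within a group agreed within sampling noise (lowest chi-square per gene 4.02).

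The 10 genes, the lists and the tests were chosen with earlier results of these data known. Named are all 10 genes, at most the 6 largest called genes of the wider list per comparison with a mean of at least 1 CPM (others were named where a group of 5 or fewer was listed, after their values were seen), and the 3 genes most like each of the 10. A gene of the wider list is not reported here, and its counts leave that gene out. Positions are those of GENCODE for GRCm38. Reads shared with overlapping genes or pseudogenes could not be told apart. Alternatives were DESeq2 1.42.0, RLE factors, library totals, no filter, a mean of at least 20 counts, limma 3.58.1 on log2(TPM + 1), thinning, 1 fit of all groups, plate rows, the replicate number as a block, a pseudocount of 0.1 and CPM. Fits without libraries with oocyte markers or without single libraries were added after seeing the data.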

Additional observations from a re-analysis of the deposited data

Results flagged for a closer look

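Each result here is a difference in the effect of side between the media, or equally in the effect of hCG between the sides, tested as the interaction term in edgeR over all 54 libraries, where 8.91% of all genes tested were called. Among the 10 genes, *Bmp2* had an interaction log2FC of −1.66 (SE 0.41, FDR = 0.00628, edgeR), its hCG effect being −5.12 on the unruptured and −6.77 on the ruptured side. For *Id3* the interaction was −1.05 (SE 0.26, FDR = 0.00636, edgeR), with hCG effects of −2.34 and −3.38, and its side difference was 0.62 without hCG and −0.44 post-hCG. Neither side call of *Id3* held within plate row G (0.50, FDR = 0.548, edgeR) or row C (−0.09, FDR = 0.869, edgeR). The first was also lost without the libraries with oocyte markers (FDR = 0.0755, edgeR). The second was lost in 11 of 25 fits that left out 1 library. *Grem1* gave −1.40 (SE 0.45, FDR = 0.0359, edgeR), with hCG effects of 0.38 and −1.01. That call was lost without the libraries with oocyte markers (−1.32, FDR = 0.0766, edgeR) and in 8 of the 54 fits that left out 1 library. It was also lost with no filter and with counts thinned to the smallest library. In the wider list, the ligand gene *Bmp3* gave −1.41 (SE 0.31, FDR = 0.00218, edgeR), falling further with hCG on the ruptured side. *Runx2* gave 0.83 (SE 0.22, FDR = 0.0119, edgeR), rising further there. The theca marker sum, with medians of 724 and 35.6 TPM on the unruptured and ruptured sides without hCG and 346 and 6.97 TPM post-hCG, moved with side in either medium. The granulosa marker sum, like the side difference of *Id3*, was higher on the ruptured side without hCG (medians of 4094 and 13090 TPM on the unruptured and ruptured sides) and lower there post-hCG (1512 and 1198 TPM). The part of both sums in these differences was not tested.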

How the results depend on the processing

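Of the log2FC values of the 10 genes under alternatives other than single libraries left out, 356 kept their direction and side of the threshold, 30 lost a call, 1 gained one (the *Bmpr2* interaction with limma) and 15 turned sign, all 15 of values that were not called. The hCG effects of *Bmp2*, *Bmpr1b*, *Bmpr2*, *Id2* and *Id3* on both sides were called under every alternative run. The cause of the changes that follow was not tested, apart from fits with fewer libraries or more genes. Members called between the sides without hCG numbered 4, but 2 without the libraries with oocyte markers or with limma on log2(TPM + 1), and 0 in plate row G alone, where the wider list also gave 0 (1 of 9 and 2 of 19 at an unadjusted p under 0.05 in edgeR, the one tool run there). Post-hCG 4 were called, but 2 in one fit of all 4 groups, without the oocyte-marker libraries or with limma, and 0 in plate row C (1 of 7 at an unadjusted p under 0.05 in edgeR), where the wider list gave 5. Of all genes, 3 of 9068 were called in row G and 748 of 9004 in row C. Without single libraries the members called post-hCG numbered 2 to 4, the 2 being *Bmp2* and *Id2* without unruptured replicate 4 or ruptured replicate 13. Leaving out single libraries, the wider list gave 2 to 4 interaction calls, against 2 with all, the 4 without putative ruptured replicate 4. In the wider list, hCG calls on the unruptured side went from 13 to 23 with DESeq2 and 26 with no filter, and on the ruptured side from 15 to 25 with either, with more genes tested.

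Signs turned for *Bmp2* without hCG in plate row G (−0.34), *Id1* without hCG without the oocyte-marker libraries (0.04) and in row G (0.25), and *Id2* without hCG (−0.01 without those libraries and with library totals, −0.24 with limma, −0.0036 with no filter, −0.22 with the replicate block). Post-hCG they turned for *Bmpr1a* (−0.01, limma), *Bmpr2* (−0.06 limma, −0.19 row C) and *Id1* (−0.02 library totals, −0.07 limma), and in the interaction for *Bmpr1a* (−0.03, limma) and *Smad7* (0.02 without the oocyte-marker libraries).

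Libraries of the same replicate number showed little correlation of deviations, with medians from −0.05 to 0.04 and single pairs from −0.19 to 0.31. Sides of 1 follicle need not share such deviations, so whether the numbers pair libraries is not known. With the replicate block, the members called in the 5 comparisons were 4, 4, 6, 7 and 3, against 4, 4, 6, 8 and 3, the lost one being *Bmpr1a* with hCG on the ruptured side (FDR = 0.0871, edgeR). Library totals alone moved the median log2FC of all genes to −0.14 between the sides post-hCG, −0.25 and −0.33 with hCG on the unruptured and ruptured sides, and −0.11 in the interaction. The calls post-hCG then split into 397 higher and 1830 lower, against 862 and 971. With limma on log2(TPM + 1), the median was −0.21 between the sides post-hCG, with 214 genes called higher and 2166 lower. Its interaction median was −0.19, with 85 genes called above 0 and 679 below. The limma medians were −0.03 between the sides without hCG, and 0.04 and −0.14 with hCG on the unruptured and ruptured sides. Of the pairs of members, 2 passed on log2(TPM + 1) and 0 on log2(CPM + 1), with 10 and 4 of 40 under 0.05 before adjustment. Counts of *Smad6* and *Smad7* limit what could be detected for them.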
